A study of Mus musculus with 24 samples.

Results

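Total RNA of pachytene spermatocytes was compared with total RNA of spermatogonia in 7 of the 24 libraries of the series. Genes were taken from the authors' table of total RNA without its spike-in rows, and were tested where at least 2 of the 7 libraries reached 1 FPKM (fragments scaled by transcript length and by the mapped fragments of the library). This left 18010 of 52231 genes. Pachytene spermatocytes gave 4 libraries, libraries 1 and 3 from animal 2 and libraries 2 and 4 from animal 4. Spermatogonia gave 3 libraries, libraries 1 and 2 from animal 3 and library 3 from animal 1. No animal gave both stages, so differences between animals and between stages cannot be told apart, and p-values rest on the spread between 2 animals of a stage.

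Both groups were wild-type testis cells of NMRI mice. All animals had been given WIN18,446, an inhibitor of retinoic acid synthesis, and then retinoic acid, so that their spermatogenesis ran in step. All received 2 mg of 5-ethynyl uridine (EU), a uridine analogue that is built into new RNA, at 24 days of age and were killed 3 hours later. Cells were sorted by ploidy, and DNA content alone does not separate germ cells from somatic cells of the same ploidy.

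As background, spermatogonia are the mitotic germ cells of the seminiferous tubule, and retinoic acid commits them to meiosis. In meiotic prophase homologous chromosomes break, pair and recombine, and by the pachytene stage they are joined along the synaptonemal complex. Autosomes are then transcribed strongly, including many genes whose products serve only in spermatids and sperm, while the X and Y chromosomes are packed into the sex body and silenced, which is called meiotic sex chromosome inactivation. MYBL1 (A-MYB), TCFL5 and RFX2 are transcription factors known to drive much of this programme in mouse.

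The genes set as markers followed the labels of the stages. Piwil1, the PIWI protein that binds pachytene piRNAs, had 142, 162, 84.7 and 153 FPKM in pachytene against 8.27, 1.19 and 1.75 FPKM in spermatogonia. Its level on the log2(FPKM + 1) scale was higher in pachytene by 5.23 ± 0.35 (SE; adjusted p = 0.00123, limma with Benjamini-Hochberg adjustment over all genes tested, 2 animals per stage). Acr, the acrosomal protease acrosin, had 28.9, 47.8, 31.6 and 56.0 FPKM in pachytene against 1.53, 0.724 and 1.95 FPKM in spermatogonia (log2 change 4.03 ± 0.36, adjusted p = 0.00137). Gfra1, the co-receptor for GDNF on undifferentiated spermatogonia, had 0.524, 0.277, 0.882 and 0.410 FPKM in pachytene against 9.24, 9.75 and 7.39 FPKM in spermatogonia (log2 change -2.64 ± 0.25, adjusted p = 0.00148). The libraries of the stages did not overlap for any of the 3 markers. Values of single libraries are given in the order of libraries 1 to 4 for pachytene and 1 to 3 for spermatogonia. A log2 change is pachytene minus spermatogonia on the log2(FPKM + 1) scale with its SE, a scale that makes the changes of weakly expressed genes look smaller, and "rose" or "fell" means an adjusted p under 0.05.

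Libraries of a stage resembled each other more than those of the other stage, with Spearman correlations across genes of 0.901 to 0.934 within pachytene, 0.828 to 0.888 within spermatogonia and 0.123 to 0.336 between them. A pachytene library had 11988 to 12402 genes with 1 FPKM or more and a spermatogonia library 14479 to 14861. Counts were not used here, and the spacing of low values puts the depth roughly at 11.9 to 15.8 M reads in pachytene and 9.12 to 13.1 M in spermatogonia, only 29.9% to 33.0% of those values lying within 0.05 of a whole read. Pachytene library 3 stood apart from the others of its stage, since its listed X-linked housekeeping genes summed to 51.4 FPKM against 4.25 to 6.63 FPKM in the other pachytene libraries, and spermatogonial genes such as Sall4 were highest there. Without it 5020 genes rose and 6101 fell, among them 94.3% and 97.8% of those called with it, and in each of 26 gene lists the number risen and the number fallen moved by at most 1. Markers of somatic testis cells (Sertoli, Leydig, peritubular, vascular and blood cells) summed to 20.0 to 25.2 FPKM in pachytene libraries and 669 to 1099 FPKM in spermatogonia libraries. In bulk RNA fewer cells of a type and less RNA per cell cannot be told apart.

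Most of the measured genes differed between the stages. In pachytene 5111 genes rose, which is 28.4% of those tested, and 6140 fell, which is 34.1%, together 62.5%. By at least 2 log2 units 1761 rose and 2041 fell, and by at least 4 units 336 rose and 178 fell. The median change over all genes was -0.10. Risen genes made up 39.3% to 46.3% of the summed FPKM of a pachytene library and 4.91% to 5.57% of that of a spermatogonia library, whereas fallen genes held 25.2% to 30.2% in pachytene and 64.0% to 71.0% in spermatogonia. The libraries of the stages did not overlap for 4857 of the risen and 5968 of the fallen genes. The balance of calls depended on the level filter and on the scale. With a filter of 5 FPKM 3207 of 8890 genes rose and 2566 fell, and the median was 0.30. With values scaled to the ERCC spike-ins 6356 genes rose and 4284 fell, so that rises were 59.7% of calls in place of 45.4%, and the median over all genes was 0.47. The spike-ins, added after extraction, held 2.49% to 3.09% of FPKM in pachytene and 2.96% to 6.02% in spermatogonia. Changes below are relative to the composition of each library.

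**Figure D1:**
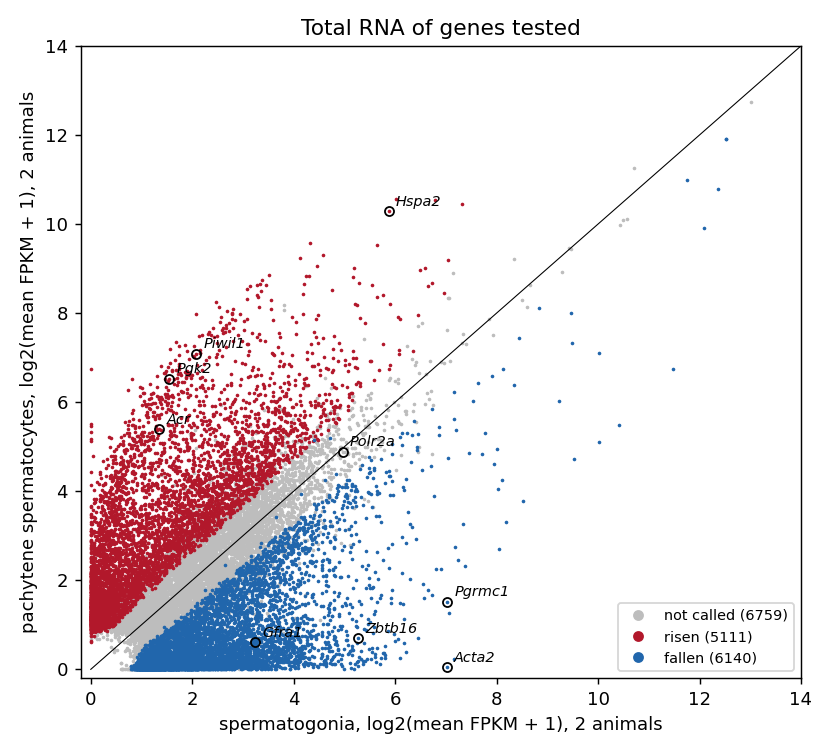
Mean level of each tested gene over 2 animals per stage on a log2(FPKM + 1) scale, with pachytene on the vertical and spermatogonia on the horizontal axis. The 5111 risen genes are red and the 6140 fallen genes blue. The 4857 risen genes without overlap between the stages lie above the diagonal and the 5968 such fallen genes below it. Called genes with overlap can lie on either side, since calls rest on log values averaged per animal. Polr2a lies near the diagonal.

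The level filter passed through a dense range. By the value of the library next to the highest, A230103L15Rik (1.0002 FPKM) and D6Wsu163e (1.00021 FPKM) were the nearest genes inside, and Gm42440 (0.99997 FPKM) and Mir7651 (0.999884 FPKM) the nearest outside. Within 0.05 FPKM of the limit lay 267 genes on the inside and 293 on the outside.

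Several of the largest rises and falls lay outside the gene lists named below. Hspb9, a small heat-shock protein of the testis, had 424, 340.1, 499 and 320.3 FPKM in pachytene against 3.74, 2.20 and 14.3 FPKM in spermatogonia (5.66 ± 0.68, adjusted p = 0.00249) and Qrich2, a protein of the sperm tail, had 308, 202, 312 and 229.9 FPKM in pachytene against 3.66, 1.43 and 8.28 FPKM in spermatogonia (5.54 ± 0.54). On the falling side Glul, glutamine synthetase, had 0.900, 0.778, 2.67 and 1.26 FPKM in pachytene against 149.7, 196 and 91.6 FPKM in spermatogonia (-5.78 ± 0.38), and Ptma, prothymosin alpha, had 5.05, 8.99, 0.259 and 7.53 FPKM in pachytene against 142, 312 and 298 FPKM in spermatogonia (-5.64 ± 0.62). Acsbg1 (-5.73 ± 0.42), Fgl2 (-5.57 ± 0.47) and Aldh1a1 (-5.56 ± 0.59) were of similar size. The rule that named these genes required that the stages did not overlap.

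Some genes were present in one stage and near 0 in the other. For scale, 17188 of all genes tested had coordinates. These held 12525 protein-coding genes, 551 lincRNAs and 693 antisense genes, and 601 lay on the X chromosome. In 248 genes all 4 pachytene libraries had at least 1 FPKM and all 3 spermatogonia libraries were under 0.1 FPKM. They included 71 protein-coding genes, 54 lincRNAs and 20 antisense genes, and 5 lay on the X chromosome. Morn5, a protein with MORN repeats, led them with 97.3, 135, 95.5 and 97.3 FPKM in pachytene and was listed at 0 in all 3 spermatogonia libraries (adjusted p = 0.00123). Wfdc15a had 39.3, 51.8, 37.2 and 48.7 FPKM in pachytene and was listed at 0 in spermatogonia. The reverse held for 692 genes, of which 593 were protein-coding and 90 (13.0%) lay on the X chromosome. Acta2, the smooth muscle actin of peritubular cells, came first with 0.0656, 0, 0.0854 and 0 FPKM in pachytene against 138, 218 and 79.4 FPKM in spermatogonia. Next came Rps4x, an X-linked ribosomal protein gene, which was listed at 0 in all 4 pachytene libraries and had 41.4, 61.1 and 19.2 FPKM in spermatogonia (adjusted p = 0.00151). Ribosomal protein genes have many processed copies that can take their reads, so their levels are uncertain.

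Transcription regulators of the pachytene stage mostly rose. Of 19 measured members 12 rose and 6 fell, against 28.4% risen and 34.1% fallen of all genes, with a median change of 2.03. The share fallen was near that of all genes. Tcfl5 had 112, 122, 161 and 149 FPKM in pachytene against 14.9, 9.45 and 9.52 FPKM in spermatogonia (log2 change 3.54 ± 0.23, adjusted p = 0.00123). Rfx2 had 23.7, 69.5, 69.3 and 14.9 FPKM in pachytene against 3.70, 2.34 and 4.07 FPKM in spermatogonia (3.06 ± 0.26), so its pachytene libraries varied by several fold but stayed above spermatogonia. Mybl1 had 29.3, 27.4, 4.09 and 34.2 FPKM in pachytene against 2.90, 2.87 and 5.05 FPKM in spermatogonia (2.03 ± 0.52, adjusted p = 0.0230). Pachytene library 3 alone was within the range of spermatogonia for Mybl1, and its call was lost without animal 1 (adjusted p = 0.0984), 3 (adjusted p = 0.108) or 4 (adjusted p = 0.0995) and without pachytene library 1 (adjusted p = 0.232). Gtf2a1l, a germ-cell relative of the general factor TFIIA, changed most, with 63.3, 59.1, 72.4 and 52.9 FPKM in pachytene against 1.13, 0.735 and 2.70 FPKM in spermatogonia (4.55 ± 0.38). Tbpl1, the TBP-like protein, had 69.0 to 84.3 FPKM in pachytene against 9.07 to 9.85 FPKM in spermatogonia (2.91 ± 0.22). Sox30 (3.12 ± 0.26), Ovol1 (3.01 ± 0.27), Brdt (2.74 ± 0.24) and Crem (1.62 ± 0.23), regulators of later germ cell development, also rose.

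Taf7l and Taf9b, X-linked relatives of TFIID subunits, were the members with the largest falls. Taf7l had 0.600, 0.495, 8.69 and 0.401 FPKM in pachytene against 41.7, 37.0 and 52.3 FPKM in spermatogonia (-4.28 ± 0.52) and Taf9b had 0.160, 0.249, 3.42 and 0.266 FPKM in pachytene against 20.3, 20.8 and 28.0 FPKM in spermatogonia (-3.89 ± 0.37). For both, pachytene library 3 was the highest of its stage and below every spermatogonia library. Polr2a, the largest subunit of RNA polymerase II, had 26.7 to 31.3 FPKM in pachytene against 27.6 to 32.6 FPKM in spermatogonia and was not called (-0.07 ± 0.22, adjusted p = 0.791). With spike-in scaling its change was 0.56, also not called.

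Promoters of risen genes are shown because MYB and RFX proteins bind known short sequences. Promoter sequences of RefSeq (GRCm38, the build also named mm10) were found for 10608 of the 18010 genes tested, and the 250 bases before the first listed start were read on both strands. The MYB core AACNGTC was present in 8.46% of 2720 promoters of risen genes, 5.01% of 3952 promoters of fallen genes and 6.42% of all promoters read. The RFX element GTTGCCATG was present in 0.956% of risen, 0.354% of fallen and 0.556% of all promoters. The CRE TGACGTCA was present in 2.94% of risen, 2.30% of fallen and 2.72% of all, the E-box CACGTG in 7.46%, 8.38% and 8.54%, and the TATA box TATAAA in 7.17%, 6.17% and 6.31%. The GC box GGGCGG was present in 49.6% of risen, 63.0% of fallen and 58.2% of all promoters, and the median GC content was 57.6%, 60.8% and 59.6%. A promoter with several motifs counts for each, these shares carry no test, and a match describes letters, not binding.

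The promoters below belong to strongly risen genes that hold a match and were chosen after the values were seen. Each is 100 bases of the strand of the gene, with the MYB core in capitals in Spata4, Ube2d2b, Pou5f2 and Ldhc, read from the other strand in Spata4, and the RFX element in capitals in Ttc30a2 and Lrrc34. Spata4 (chr8:54600573-54600672, plus strand) is a testis gene, Ube2d2b (chr5:107830062-107830161, plus strand) a ubiquitin-conjugating enzyme, Pou5f2 (chr13:78024672-78024771, plus strand) a POU factor and Ldhc (chr7:46861063-46861162, plus strand) the testis lactate dehydrogenase. Ttc30a2 (chr2:75978180-75978279, minus strand) is a gene of intraflagellar transport and Lrrc34 (chr3:30647819-30647918, minus strand) encodes leucine-rich repeats.
Spata4: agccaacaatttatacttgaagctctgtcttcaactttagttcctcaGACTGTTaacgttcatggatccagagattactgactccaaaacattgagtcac
Ube2d2b: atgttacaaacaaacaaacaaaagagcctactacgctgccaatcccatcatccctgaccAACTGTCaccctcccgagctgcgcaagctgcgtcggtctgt
Pou5f2: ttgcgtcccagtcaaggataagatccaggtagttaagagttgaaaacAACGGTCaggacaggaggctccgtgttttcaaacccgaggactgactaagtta
Ldhc: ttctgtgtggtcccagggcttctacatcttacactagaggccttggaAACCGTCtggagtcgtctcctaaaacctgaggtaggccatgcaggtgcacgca
Ttc30a2: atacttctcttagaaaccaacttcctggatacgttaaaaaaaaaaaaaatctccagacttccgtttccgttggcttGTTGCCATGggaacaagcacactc
Lrrc34: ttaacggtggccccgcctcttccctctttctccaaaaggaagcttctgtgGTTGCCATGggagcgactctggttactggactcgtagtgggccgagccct

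The match lay 161 bases before the start of Spata4, 41 before that of Ube2d2b, 183 before that of Pou5f2, 153 before that of Ldhc, 24 before that of Ttc30a2 and 50 before that of Lrrc34. Spata4 had 442, 434, 505 and 466 FPKM in pachytene against 7.65, 3.32 and 15.4 FPKM in spermatogonia (log2 change 5.53 ± 0.50, adjusted p = 0.00139). Ube2d2b averaged 201 ± 53.9 FPKM in pachytene and 4.33 ± 2.73 FPKM in spermatogonia (SD over 2 animals each), and both libraries of animal 2 were above those of animal 4. Ttc30a2 had 209 to 231 FPKM in pachytene against 2.97 to 9.16 FPKM in spermatogonia (4.89 ± 0.34) and Lrrc34 had 36.7 to 40.9 FPKM in pachytene against 0.748 to 1.48 FPKM in spermatogonia (4.18 ± 0.24).

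Of 24 measured genes of the piRNA pathway and germ granule, 12 rose, 1 fell and 11 were not called, with a median of 1.09. Among all genes 28.4% rose and 34.1% fell. Beside Piwil1, Tdrd6, a Tudor protein of the chromatoid body, had 474, 325, 476 and 334 FPKM in pachytene against 7.65, 2.47 and 13.2 FPKM in spermatogonia (5.49 ± 0.52, adjusted p = 0.00147). Ddx25, an RNA helicase, had 46.4 to 52.0 FPKM in pachytene against 2.30 to 4.21 FPKM in spermatogonia (3.46 ± 0.24), and Mael, of the germ granule, had 219 to 252 FPKM in pachytene against 31.4 to 42.5 FPKM in spermatogonia (2.59 ± 0.22). The stages were well apart for these. Piwil2 (0.87 ± 0.40) and Ddx4 (0.81 ± 0.28), known from earlier germ cells as well, were not called. Fkbp6 was the member that fell, with 1.34, 10.5, 2.21 and 2.58 FPKM in pachytene against 18.9, 12 and 14.2 FPKM in spermatogonia (-1.90 ± 0.45). The number risen was 5 to 15 over the alternatives run, lowest without animal 4.

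Genes that store RNA and govern its translation moved in both directions. Of 23 measured, 10 rose and 8 fell, against 28.4% risen and 34.1% fallen of all genes, so that the share fallen was near that of all genes, and the median was 1.08. Ybx2 (MSY2), which packages stored mRNA in germ cells, had 479, 645, 532 and 479 FPKM in pachytene against 21.4, 7.40 and 27.3 FPKM in spermatogonia (4.75 ± 0.39, adjusted p = 0.00127). The poly(A)-binding protein genes Pabpc2 and Pabpc6 were among the largest rises of all genes, Pabpc2 with 443, 307, 477 and 333 FPKM in pachytene against 4.90, 1.72 and 12.3 FPKM in spermatogonia (5.72 ± 0.62) and Pabpc6 with 501, 328, 521 and 359 FPKM in pachytene against 5.75, 2.27 and 14.8 FPKM in spermatogonia (5.60 ± 0.63). Both resemble Pabpc1, which rose by 2.71 ± 0.22, and reads may be shared among them. Papolb, a poly(A) polymerase of testis, rose by 4.53 ± 0.40. The RNA-binding genes Elavl2 (-3.24 ± 0.30) and Cpeb1 (-3.15 ± 0.29) fell, and so did Spin1, with 1.01 to 3.56 FPKM in pachytene against 35.6 to 51.4 FPKM in spermatogonia (-3.64 ± 0.30). The number risen was 6 to 12 over the alternatives run, lowest without animal 2.

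Regulators of the meiotic divisions moved in both directions too. Of 25 measured, 10 rose and 6 fell, against 28.4% risen and 34.1% fallen of all genes, with a median of 0.65. With spike-in scaling 11 rose and 2 fell, with a median of 1.25. Hspa2, a chaperone needed for male meiosis in mice, had 1198, 1331, 1158 and 1323 FPKM in pachytene against 55.6, 38.8 and 67.8 FPKM in spermatogonia (4.45 ± 0.26, adjusted p = 0.00123). Ccna1, the germline cyclin A, had 10, 8.30, 19.4 and 9.06 FPKM in pachytene against 0.0762, 0 and 0.286 FPKM in spermatogonia (3.38 ± 0.30), and the kinase Aurka had 37.4 to 44.9 FPKM in pachytene against 3.33 to 4.52 FPKM in spermatogonia (3.07 ± 0.22). Nek2 (2.88 ± 0.22) and Ccnb2 (2.61 ± 0.28) rose as well, while Ccna2 (-1.66 ± 0.36), Ccnb1 (-1.08 ± 0.26) and the phosphatase Cdc25b (-2.36 ± 0.21) fell. Summed over the list, levels were 1648 to 1852 FPKM in pachytene and 186 to 227 FPKM in spermatogonia, most of the pachytene level being Hspa2.

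Chromatin genes moved in both directions, and their counts stand against 28.4% risen and 34.1% fallen of all genes. Of 11 measured histone variants 4 rose and 2 fell. The testis linker histone Hist1h1t (H1t) had 1267, 1837, 1190.1 and 1756 FPKM in pachytene against 66.6, 29.8 and 79.6 FPKM in spermatogonia (4.61 ± 0.36). H1f0 fell (-2.48 ± 0.24), and so did Hist1h2aa, which still had 99.2 to 224 FPKM in pachytene against 556 to 802 FPKM in spermatogonia (-2.20 ± 0.33) and whose call was lost without animal 1 (adjusted p = 0.0508) and with spike-in scaling (adjusted p = 0.0786). Of 15 measured genes of DNA methylation and Polycomb 6 fell and 1 rose, led by Tet3 (-3.31 ± 0.22), which oxidises methylcytosine, Scml2 (-2.68 ± 0.27), a Polycomb protein of the germline, and Cbx2 (-2.63 ± 0.41). Over the alternatives run 2 to 7 of these fell, fewest without animal 3 or 4 or with the 5 FPKM filter, and 2 to 5 histone variants rose, fewest without animal 4. The median of the methylation and Polycomb list was -0.41, and 0.17 with spike-in scaling, so its sign depends on the scale. Cbx2 overlapped between the stages, with 1.24 FPKM in pachytene library 3 against 1.03 FPKM in spermatogonia library 2. It was not called without spermatogonia library 1 (adjusted p = 0.165), without animal 4 (adjusted p = 0.0683) or with libraries fitted singly and the animal as a random block (adjusted p = 0.05005).

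Genes of the sperm tail moved nearly all in one direction. Of 53 measured genes of the axoneme and flagellum 50 rose, none fell and 3 were not called, against 28.4% of all genes risen, and the median change was 3.31. Dnah1, a heavy chain of the dynein motor, had 42.0, 36.2, 41.1 and 37.2 FPKM in pachytene against 0.945, 0.596 and 1.38 FPKM in spermatogonia (4.29 ± 0.26). Rsph1, of the radial spoke, had 281, 275, 285 and 242 FPKM in pachytene against 7.08, 2.93 and 6.94 FPKM in spermatogonia (5.34 ± 0.26). Odf4, of the outer dense fibres, had 139, 112, 123 and 114 FPKM in pachytene against 2.14, 0.729 and 2.91 FPKM in spermatogonia (5.34 ± 0.32), and Ropn1l, of the fibrous sheath, had 295, 282, 317 and 234 FPKM in pachytene against 5.79, 2.21 and 5.60 FPKM in spermatogonia (5.66 ± 0.27). In each of these 4 genes the lowest pachytene library was more than an order of magnitude above the highest spermatogonia library. Rsph4a, Meig1 and Ift88 were the 3 not called. Another 9 listed genes, Akap4 and Odf1 of the finished tail among them, did not reach the level filter. A gene that is high in pachytene only can pass that filter, so these counts describe the members that passed and not the list. Summed over the list, levels were 2004 to 2419.9 FPKM in pachytene and 51.7 to 106 FPKM in spermatogonia.

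Genes of the acrosome and sperm surface were 35 in the list, of which 20 were measured. Of these 17 rose, 2 fell and 1 was not called, against 28.4% risen and 34.1% fallen of all genes, with a median of 2.92. A gene that is high in pachytene only can pass the level filter, so these counts describe the members that passed and not the list. Adam2, a sperm surface protein of the fertilin complex, had 88.3, 77.7, 73.6 and 81.8 FPKM in pachytene against 1.10, 0.597 and 2.74 FPKM in spermatogonia (4.96 ± 0.39). Spesp1, of the equatorial segment, had 86.5 to 94.6 FPKM in pachytene against 0.985 to 3.72 FPKM in spermatogonia (4.74 ± 0.35), and Dpy19l2, needed to attach the acrosome to the nucleus, had 51.5 to 66.7 FPKM in pachytene against 0.412 to 1.84 FPKM in spermatogonia (4.90 ± 0.36). The stages were far apart in all 3. Ace fell (-2.88 ± 0.41). Ly6k was called as fallen (-1.43 ± 0.27) with 56.3, 85.2, 0.765 and 0.00177 FPKM in pachytene against 21.3, 19.9 and 30.2 FPKM in spermatogonia, so its pachytene libraries lay on both sides of spermatogonia and its call rests on averages within animals. The other 15, with Izumo1, Spam1 and Acrv1 among them, did not reach the filter.

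Enzymes of energy metabolism moved by form. Of 19 measured testis isozymes 16 rose and none fell (median 3.45), and of 22 measured somatic isozymes 16 fell and 1 rose (median -2.33). Among all genes 28.4% rose and 34.1% fell. A gene that is high in a single stage can pass the level filter, so these counts describe the members that passed. Ldhal6b, a lactate dehydrogenase of testis, had 361, 277, 304 and 275 FPKM in pachytene against 2.26, 5.82 and 5.10 FPKM in spermatogonia (5.82 ± 0.25, adjusted p = 0.00123). Gk2, a glycerol kinase, had 418, 348, 460.1 and 343 FPKM in pachytene against 6.45, 2.80 and 15.4 FPKM in spermatogonia (5.39 ± 0.57), Pgam2, a phosphoglycerate mutase, had 286 to 397 FPKM in pachytene against 4.29 to 12.1 FPKM in spermatogonia (5.21 ± 0.41), and Cox8c, a subunit of cytochrome oxidase, had 532 to 649 FPKM in pachytene against 7.13 to 20.3 FPKM in spermatogonia (5.21 ± 0.32). Every pachytene library was above every spermatogonia library for these. On the somatic side Slc25a5 and Slc25a4 exchange ADP and ATP across the mitochondrial membrane. Slc25a5 had 0.135 to 0.597 FPKM in pachytene against 15.6 to 36.5 FPKM in spermatogonia (-4.19 ± 0.40), Slc25a4 had 0.243 to 0.779 FPKM in pachytene against 16.3 to 34.0 FPKM in spermatogonia (-4.02 ± 0.33), and Ldhb had 0 to 0.439 FPKM in pachytene against 7.28 to 25.4 FPKM in spermatogonia (-3.83 ± 0.25). Tpi1 was the somatic member that rose (1.09 ± 0.35, adjusted p = 0.0463). The testis form Gapdhs was not called, at 1.34 to 1.76 FPKM in pachytene against 1.02 to 1.28 FPKM in spermatogonia. Without animal 3 only 1 spermatogonia library remained, and fewer somatic isozymes fell (4 to 18 over the alternatives run).

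Ldhc and Ldha were the least certain of these. Ldhc had 37.0, 326, 562 and 84.0 FPKM in pachytene against 16.1, 7.40 and 22.7 FPKM in spermatogonia (3.21 ± 0.38, adjusted p = 0.00237), and without pachytene library 3 its change was 2.24 (adjusted p = 0.0628). Ldha had 24.1, 21.5, 0.956 and 39.1 FPKM in pachytene against 10.1, 2.64 and 14.3 FPKM in spermatogonia and was not called (0.56 ± 0.81, adjusted p = 0.584), while without that library its change was 1.48 (adjusted p = 0.0465), and it was -0.36 without library 1, -0.08 without animal 3 and -0.49 without animal 4. Library 3 had the highest Ldhc and the lowest Ldha of its stage.

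Genes for recombination and pairing rose and fell in shares near those of all genes (28.4% risen, 34.1% fallen). Of 34 measured recombination genes 9 rose and 12 fell, and of 18 genes of the synaptonemal complex and cohesin 5 rose and 7 fell, with medians of 0.05 and 0.05, and of 0.55 and 0.54 with spike-in scaling. Prdm9, which places the breaks, had 0.168, 0.133, 3.16 and 0.131 FPKM in pachytene against 5.13, 5.28 and 8.58 FPKM in spermatogonia (-2.29 ± 0.42, adjusted p = 0.00788). Dmc1, the meiotic strand exchange protein, had 0.0533, 0.222, 5.05 and 0.197 FPKM in pachytene against 5.91, 6.49 and 11.6 FPKM in spermatogonia (-2.45 ± 0.47, adjusted p = 0.00945). In both, pachytene library 3 was by far the highest of its stage and still below spermatogonia. Tex15 had 0.893, 0.927, 15.3 and 0.886 FPKM in pachytene against 21.2, 9.81 and 90.8 FPKM in spermatogonia, so that library 3 of pachytene overlapped spermatogonia (-3.53 ± 0.98, adjusted p = 0.0295). Tex11, an X-linked gene of crossing over, fell by 2.81 on the log2 scale. Spo11, which makes the breaks, rose, with 4.86, 5.43, 3.82 and 15.7 FPKM in pachytene against 1.75, 1.11 and 1.47 FPKM in spermatogonia (1.61 ± 0.37, adjusted p = 0.0162). Mdc1 and Atr, which mark the chromatin of the sex chromosomes, rose by 2.40 ± 0.24 and 1.96 ± 0.23.

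These calls depended on single animals. Prdm9, Dmc1, Tex15 and Spo11 were not called without animal 1 (adjusted p = 0.0753 for Prdm9, adjusted p = 0.0852 for Dmc1, adjusted p = 0.134 for Tex15 and adjusted p = 0.112 for Spo11) or without animal 4 (adjusted p = 0.0643, adjusted p = 0.0737, adjusted p = 0.199 and adjusted p = 0.0707). Prdm9 (adjusted p = 0.0646), Dmc1 (adjusted p = 0.110) and Tex15 (adjusted p = 0.123) were not called without pachytene library 1 either. Tex15 and Tex11 were not called without animal 2 (adjusted p = 0.0899 and adjusted p = 0.0624), Tex11 without animal 4 (adjusted p = 0.0821), Tex15 without spermatogonia library 1 (adjusted p = 0.0616) and Spo11 without animal 3 (adjusted p = 0.0735). The number of recombination genes that fell was 1 to 12 over the alternatives run, with 7 without pachytene library 1, 6 without animal 1 and 1 without animal 4.

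Of the axial and central elements, Syce1 had 105 to 116 FPKM in pachytene against 12.3 to 25.6 FPKM in spermatogonia (2.52 ± 0.35; without animal 4 adjusted p = 0.0508) and Sycp2 rose by 2.22 ± 0.32. Sycp3 was not called, with 20.3, 8.27, 14.9 and 2.07 FPKM in pachytene against 8.56, 5.8 and 4.21 FPKM in spermatogonia (0.61 ± 0.64, adjusted p = 0.446), and without animal 2 its change was -0.28. Sycp1 fell narrowly, with 1.05, 3.60, 2.55 and 2.32 FPKM in pachytene against 4.5, 3.98 and 6.4 FPKM in spermatogonia (-0.94 ± 0.31, adjusted p = 0.0486). It was not called without any one of the 4 animals. With 0.1 or 5 added before the log in place of 1 it was not called either (adjusted p = 0.0527 and adjusted p = 0.0585). The call was also lost without a level filter (adjusted p = 0.0840) and with the spread shared with leptotene libraries (adjusted p = 0.112). With spike-in scaling the change of Sycp1 was -0.47 (adjusted p = 0.435), and the other scalings lost the call too. The cohesin subunits Smc3 (-2.85 ± 0.21), Rad21 (-2.46 ± 0.28) and the X-linked Stag2 (-2.46 ± 0.25), shared with mitosis, fell, and of the meiotic ones Rec8 fell (-2.06 ± 0.28) while Stag3 rose (1.62 ± 0.52, adjusted p = 0.0455). The number of this list that fell was 2 to 8 over the alternatives run, lower by over 1.5 times without animal 3 or 4 and with the 5 FPKM filter.

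**Figure D2:**
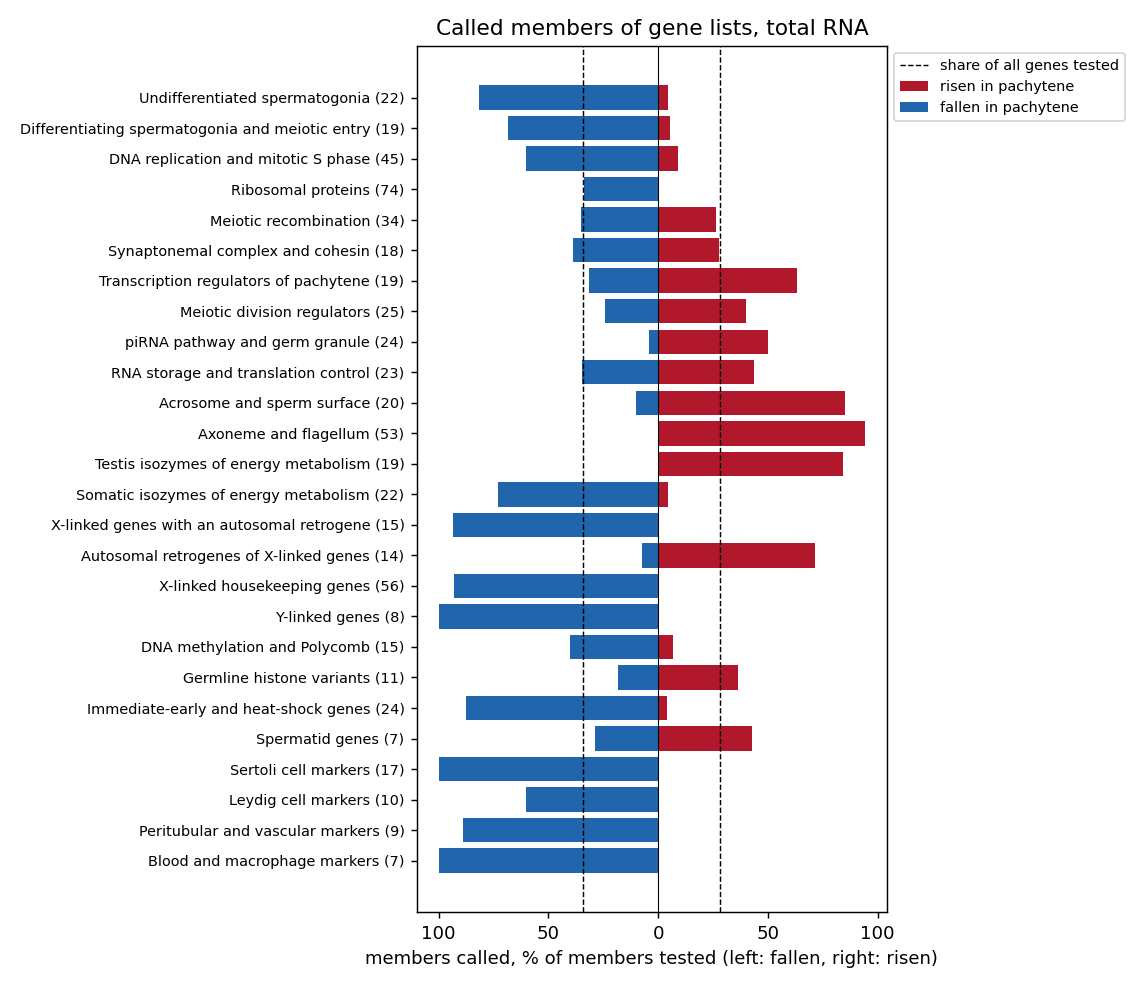
Share of the measured members of each gene list that rose (red, to the right) or fell (blue, to the left) in pachytene against spermatogonia, in percent, with dashed lines at the share of all genes tested (28.4% risen, 34.1% fallen). Axoneme, acrosome and testis isozyme lists reach far to the right, and X-linked, Y-linked and somatic marker lists far to the left.

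Spermatogonial genes were lower in pachytene. Of 28 listed genes of undifferentiated spermatogonia 22 were measured, of which 18 fell and 1 rose (median -1.68), against 34.1% of all genes fallen. A gene that is high in spermatogonia only can pass the level filter, so these counts describe the members that passed and not the list. Zbtb16 (PLZF), a regulator of stem cell maintenance, had 0.143, 0.224, 1.94 and 0.213 FPKM in pachytene against 46.3, 60.0 and 21.5 FPKM in spermatogonia (-4.54 ± 0.49, adjusted p = 0.00191). The pluripotency factors Lin28a (-4.17 ± 0.68) and Sall4 (-4.14 ± 0.45) fell, though Lin28a was not called without animal 2 (adjusted p = 0.0520) or animal 4 (adjusted p = 0.0752). Id4, known as a gene of spermatogonial stem cells in mouse, was the member that rose, with 32.4, 44.6, 27.1 and 42.3 FPKM in pachytene against 4.88, 4.91 and 4.02 FPKM in spermatogonia (2.76 ± 0.28, adjusted p = 0.00170). Of 19 genes of differentiation and meiotic entry 13 fell and Dazl, an RNA-binding protein, alone rose (1.67 ± 0.29). Dmrt1, which holds back meiosis, had 0.305, 0.492, 4.36 and 0.335 FPKM in pachytene against 53.6, 43.5 and 44.7 FPKM in spermatogonia (-4.62 ± 0.36). Stra8, induced by retinoic acid, had 0, 0, 1.88 and 0.440 FPKM in pachytene against 21.6, 25.7 and 12.5 FPKM in spermatogonia (-3.67 ± 0.38). The receptor Kit had 0.0283, 0.119, 1.11 and 0.202 FPKM in pachytene against 11.5, 2.49 and 15.4 FPKM in spermatogonia (-2.99 ± 0.48), and was not called without animal 2 (adjusted p = 0.0562) or animal 4 (adjusted p = 0.0735). In Zbtb16, Dmrt1, Stra8 and Kit alike pachytene library 3 was the highest of its stage yet below every spermatogonia library. The X-linked members Esx1 (-4.28 ± 0.72) and Rhox13 (-3.72 ± 0.42) fell, Esx1 losing its call without animal 2 (adjusted p = 0.0696) or animal 4 (adjusted p = 0.0746). Over the alternatives run 6 to 18 of the undifferentiated and 8 to 13 of the differentiating list fell, with losses of over 1.5 times under a filter of 5 FPKM and without animal 2, 3 or 4 for the one and without animal 4 for the other.

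Of 45 genes of DNA replication 27 fell and 4 rose, against 34.1% fallen and 28.4% risen of all genes, with a median of -1.13. Fen1, the flap endonuclease, had 0, 0.489, 2.68 and 0 FPKM in pachytene against 21.8, 17.6 and 29.3 FPKM in spermatogonia (-4.03 ± 0.34), and Mcm4, of the replicative helicase, had 0.409, 0.729, 2.61 and 0.390 FPKM in pachytene against 19.0, 20.8 and 25.6 FPKM in spermatogonia (-3.66 ± 0.29). Pachytene library 3 was again the highest of its stage. Another helicase subunit, Mcm2, fell by 3.35 on the log2 scale. Mcm7 (0.95 ± 0.21), Gins1 (1.93 ± 0.24), Gins4 (1.05 ± 0.23) and Rrm1 (0.93 ± 0.28) rose, and Pcna was not called (0.68 ± 0.25). With spike-in scaling 16 fell and 5 rose, and without animal 2 or 4 the number fallen also dropped by over 1.5 times (13 to 28 over the alternatives run).

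Of 74 ribosomal protein genes 25 fell, none rose and 49 were not called, a share near that of all genes fallen, with a median of -0.58. With spike-in scaling 2 fell and 1 rose, with a median of -0.02, and over all alternatives run 2 to 32 fell, fewer by over 1.5 times also without animal 2, 3 or 4 and where the spread was shared with leptotene libraries. Rpl29 fell by 1.97 on the log2 scale. Rpl41 had 136, 16.9, 12.6 and 92.7 FPKM in pachytene against 144, 171 and 210.1 FPKM in spermatogonia (-2.12 ± 0.24), and the paired libraries of each pachytene animal were unlike. It was not called without pachytene library 3 (adjusted p = 0.134), with the animal as a random block (adjusted p = 0.129), with libraries as independent (adjusted p = 0.0561), with the spread shared with leptotene libraries (adjusted p = 0.235) or with spike-in scaling (adjusted p = 0.0797).

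Immediate-early and heat-shock genes, induced by growth signals, stress and handling of cells, were among the strongest falls. Of 24 measured 21 fell, against 34.1% of all genes, Dnajb1 alone rose (2.44 ± 0.29), and the median was -3.23. Junb had 0.608, 0.631, 0.758 and 0.212 FPKM in pachytene against 76.8, 92.7 and 40.2 FPKM in spermatogonia (-5.27 ± 0.41, adjusted p = 0.00125). Egr1 had 0.333 to 1.5 FPKM in pachytene against 22.5 to 89.9 FPKM in spermatogonia (-4.56 ± 0.56), and the heat-shock gene Hspa1b had 0.10 to 0.502 FPKM in pachytene against 14.5 to 54.3 FPKM in spermatogonia (-4.49 ± 0.59). Jund (-4.75 ± 0.42) and Btg2 (-4.59 ± 0.51) were the other named members. The list summed to 122 to 165 FPKM in pachytene and 347 to 824 FPKM in spermatogonia, where the libraries of animal 3 were above that of animal 1. Sums of the somatic markers, somatic isozymes and X-linked housekeeping genes had the same order. So did genes of undifferentiated spermatogonia (321 and 327 FPKM in animal 3, 169 FPKM in animal 1). The order was reversed in other lists, such as differentiating spermatogonia (312 and 268 FPKM against 451 FPKM) and DNA replication. Over the alternatives run 7 to 22 members fell, fewer by over 1.5 times without animal 2, 3 or 4.

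Markers of somatic testis cells were prominent among the falling genes. All 17 measured Sertoli cell markers, 6 of 10 Leydig cell markers, 8 of 9 peritubular and vascular markers and all 7 blood and macrophage markers measured fell, and none rose. Among all genes 34.1% fell, and a marker high in spermatogonia only can pass the level filter. Insl3, the peptide hormone of Leydig cells, had 0.267, 0.407, 0 and 0 FPKM in pachytene against 286, 76.5 and 103 FPKM in spermatogonia (-6.76 ± 0.27, adjusted p = 0.00123). The collagen gene Col1a1 had 0.0645 to 0.389 FPKM in pachytene against 43.4 to 77.0 FPKM in spermatogonia (-5.50 ± 0.28), and Cldn11, of the Sertoli cell barrier, had 0.180 to 0.725 FPKM in pachytene against 32.3 to 40.7 FPKM in spermatogonia (-4.69 ± 0.22). Clu (-5.04 ± 0.30), Hsd3b1 (-5.36 ± 0.44) of steroid synthesis and Lyz2 (-3.72 ± 0.22) of macrophages fell as well. Sertoli markers summed to 2.78 to 8.38 FPKM in pachytene and 199 to 295 FPKM in spermatogonia. Leydig markers summed to 8.02 to 12.3 FPKM in pachytene and 188 to 476 FPKM in spermatogonia. Peritubular and vascular markers summed to 2.52 to 3.64 FPKM in pachytene and 237 to 480.4 FPKM in spermatogonia, and blood markers to 2.68 to 3.61 FPKM in pachytene and 45.6 to 56.3 FPKM in spermatogonia. In pachytene 4 Sertoli, 2 Leydig and 1 blood markers were at 0 in every library, and none of these lists had a marker at 0 in every spermatogonia library. Without animal 3, which leaves 1 spermatogonia library and so drops genes seen only there, the numbers that fell were lowest (3 to 17 Sertoli, 0 to 8 Leydig, 1 to 9 peritubular and vascular and 1 to 7 blood markers over the alternatives run, the blood markers also moving without animal 2 or 4 and with the 5 FPKM filter). The Leydig markers Star, Fdx1, Nr5a1 and Hsd17b3 were not called. These markers move with the stage. Their part in the falls of spermatogonial, replication, metabolic, immediate-early and X-linked genes, and in the largest falls outside the lists, was not tested.

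Spermatid genes were low in both stages. Of 18 listed, 7 were measured, of which 3 rose and 2 fell, and 5 were at 0 in all 4 pachytene libraries. Among all genes 28.4% rose and 34.1% fell. The protamine gene Prm1 had 2.35, 2.35, 2.44 and 2.90 FPKM in pachytene against 0.840, 1.31 and 2.80 FPKM in spermatogonia (0.32 ± 0.34, adjusted p = 0.453; -0.12 without animal 3), and the transition protein gene Tnp1 was listed at 0 in all pachytene libraries. Actl7b, an actin-like protein, was the exception, with 66.4 to 77.4 FPKM in pachytene against 1.19 to 3.63 FPKM in spermatogonia (4.28 ± 0.30). Tnp2 rose (1.21 ± 0.34, adjusted p = 0.0294) and so did Gsg1 (1.19 ± 0.26), but Tnp2 was not called without any one of the 4 animals, nor Gsg1 without animal 2 (adjusted p = 0.0658) or 3 (adjusted p = 0.0783). The list summed to 80.5 to 88.0 FPKM in pachytene and 9.17 to 19.0 FPKM in spermatogonia, and 1 to 3 members rose over the alternatives run, fewer than 3 without animal 2 or 3 and with the 5 FPKM filter.

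**Figure D3:**
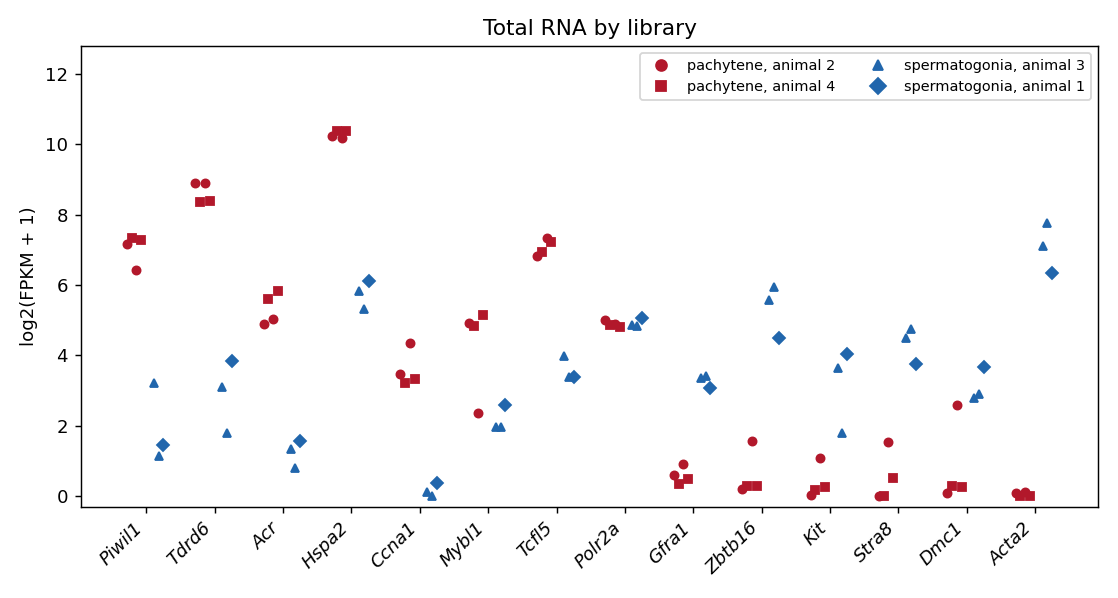
Level of 14 genes in each library on a log2(FPKM + 1) scale, with pachytene (red) left of spermatogonia (blue) and a symbol for each animal. Piwil1 to Tcfl5 are higher in pachytene apart from library 3 for Mybl1, Polr2a is alike in both, and Gfra1 to Acta2 are higher in spermatogonia.

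The sex chromosomes differed from the autosomes. Of 601 X-linked genes tested 31 rose (5.16%) and 514 fell (85.5%), with a median change of -1.98, whereas of 16571 autosomal genes 28.4% rose and 32.9% fell, with a median of -0.07. Single autosomes ranged from 24.1% (chromosome 13) to 31.9% (chromosome 14) risen and from 28.9% (chromosome 5) to 39.6% (chromosome 13) fallen. Of 464 protein-coding X-linked genes 439 fell (94.6%) and 10 rose. Of 16 Y-linked genes 15 fell. X-linked genes held 0.289% to 0.394% of the FPKM of a pachytene library and 1.28% to 1.40% of that of a spermatogonia library. Without animal 3, where the level filter is met by fewer spermatogonial genes, 94 X-linked genes fell, and without animal 4 there were 337.

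Of 56 measured X-linked housekeeping genes 52 fell and none rose, with a median of -2.47, against 85.5% of X-linked genes and 34.1% of all genes fallen. Pgrmc1, a haem-binding membrane protein, had 0.820, 0.692, 5.23 and 0.698 FPKM in pachytene against 126, 181 and 106 FPKM in spermatogonia (-5.74 ± 0.41, adjusted p = 0.00123), and the filamin gene Flna had 0.0544, 0.117, 0.495 and 0.0116 FPKM in pachytene against 45.2, 55.8 and 28.2 FPKM in spermatogonia (-5.06 ± 0.34). Hprt, of purine salvage, had 0, 0.181, 3.06 and 0 FPKM in pachytene against 16.6, 20.0 and 20.5 FPKM in spermatogonia (-3.78 ± 0.35), and the zinc finger gene Zfx had 0.158, 0.274, 2.44 and 0.191 FPKM in pachytene against 12.5, 11.8 and 16.0 FPKM in spermatogonia (-3.25 ± 0.32). All 4 were highest in pachytene library 3 among pachytene libraries, where they were still below every spermatogonia library. All 8 measured Y-linked genes of the list fell, led by Uba1y (-2.52 ± 0.39), Usp9y (-2.33 ± 0.24) and Eif2s3y (-2.27 ± 0.37). Their list summed to 0.216 to 0.422 FPKM in pachytene libraries 1, 2 and 4, to 5.07 FPKM in library 3 and to 29.7 to 32.6 FPKM in spermatogonia. Without animal 4, which leaves library 3 and library 1 for pachytene, Uba1y (adjusted p = 0.0713) and Eif2s3y (adjusted p = 0.0735) were not called, and without animal 2 Uba1y was not (adjusted p = 0.0518). Over the alternatives run 16 to 54 X-linked housekeeping and 2 to 8 Y-linked genes fell, fewer by over 1.5 times without animal 3 and with the 5 FPKM filter for both, and also without animal 2 or 4 for the Y-linked genes.

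**Figure D4:**
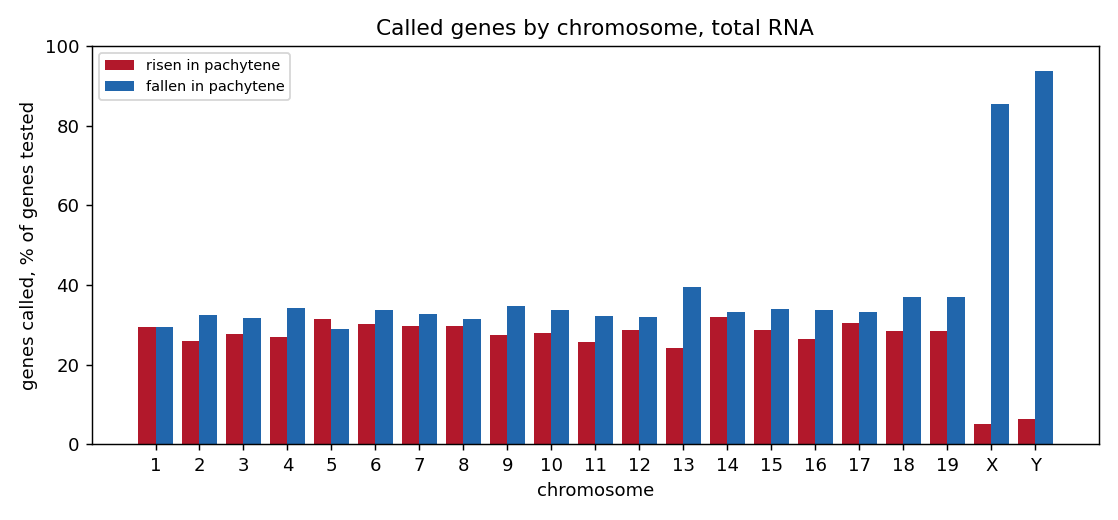
Share of the genes tested on each chromosome that rose (red) or fell (blue) in pachytene against spermatogonia, in percent. Autosomes lie between 24.1% and 31.9% risen and between 28.9% and 39.6% fallen, while 85.5% of X-linked genes fell.

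Of the 31 X-linked genes that rose 10 were protein-coding and 20 were processed pseudogenes. Of X-linked processed pseudogenes tested 23.3% rose, against 2.16% of protein-coding X-linked genes. The genes that rose included a multicopy family. All 8 tested genes named Spin2, relatives of a chromatin reader, rose, against 5.16% of X-linked genes. Some of the 8 are annotated as processed pseudogenes. Spin2e (chrX:31618216-31618920 in GENCODE M21 on GRCm38) had 47.9, 8.99, 14.9 and 26.0 FPKM in pachytene against 0.441, 0.0875 and 0.110 FPKM in spermatogonia (4.18 ± 0.32, adjusted p = 0.00125). Near-identical copies share reads, so the level of each is uncertain and the 8 do not count as independent genes. Of genes with other names, Tsga8, a testis-specific gene, had 4.94, 6.45, 3.59 and 3.87 FPKM in pachytene against 0.307, 0.422 and 0.462 FPKM in spermatogonia (1.99 ± 0.20). H2afb3, a histone variant of the testis, rose by 1.15 ± 0.17 at a low level, with 1.31 to 2.16 FPKM in pachytene against 0.0114 to 0.510 FPKM in spermatogonia. These genes were chosen after their values were seen.

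Autosomal copies of X-linked genes were set beside their relatives, since several such retrogenes are known to be used in the testis while the X chromosome is silent. Of 14 measured retrogenes 10 rose and 1 fell (median 2.52), and of 15 measured X-linked partners 14 fell and none rose (median -2.42). Among all genes 28.4% rose and 34.1% fell, and 85.5% of X-linked genes fell. A gene that is high in a single stage can pass the level filter, so these counts describe the members that passed. Over the alternatives run 3 to 15 of these partners fell, fewer by over 1.5 times without animal 3 and with the 5 FPKM filter. In 6 of 12 pairs the retrogene rose and its X-linked relative fell. Pgk2, a phosphoglycerate kinase, had 92.2, 77.8, 129 and 64.8 FPKM in pachytene against 1.31, 0.826 and 2.78 FPKM in spermatogonia (5.00 ± 0.40, adjusted p = 0.00126). Its relative Pgk1 had 0.114, 0.0895, 0.268 and 0 FPKM in pachytene against 2.09, 2.27 and 5.22 FPKM in spermatogonia (-2.0 ± 0.36; without animal 2 adjusted p = 0.0728, without animal 4 adjusted p = 0.0914). Pgk2 held 99.8% to 100% of the FPKM of the pair in pachytene and 26.7% to 38.5% in spermatogonia. Pdha2, of pyruvate dehydrogenase, had 155 to 206 FPKM in pachytene against 5.17 to 10.8 FPKM in spermatogonia (4.25 ± 0.29) and Pdha1 fell (-3.07 ± 0.34).

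The ribosomal protein gene Rpl10l had 254, 334, 243 and 325 FPKM in pachytene against 42.4, 33.4 and 35.8 FPKM in spermatogonia (2.93 ± 0.24), with Rpl10 at 0.135 to 0.982 FPKM in pachytene against 11.9 to 20.0 FPKM in spermatogonia (-3.44 ± 0.25). The centrin gene Cetn1 had 216 to 264 FPKM in pachytene against 1.89 to 8.34 FPKM in spermatogonia (5.24 ± 0.44), while Cetn2 fell (-2.20 ± 0.34; -2.03 and not called without animal 4). Cetn2 was listed at 0 in pachytene libraries 1, 2 and 4 and had 0.612 FPKM in library 3. In spermatogonia it had 0.604, 8.56 and 5.85 FPKM, so its stages overlapped. Rpl39l rose (3.60 ± 0.86, adjusted p = 0.0184) with 139, 193, 157 and 199.9 FPKM in pachytene against 24.8, 0.311 and 33.5 FPKM in spermatogonia, and was not called without spermatogonia library 1 (adjusted p = 0.0540), animal 2 (adjusted p = 0.111) or animal 4 (adjusted p = 0.144), while Rpl39 had 0 to 0.0857 FPKM in pachytene against 11.8 to 14.2 FPKM in spermatogonia (-3.76 ± 0.21). The glycerol kinase copies Gk2 and Gykl1 (5.09 ± 0.45) rose, and the X-linked Gk did not reach the filter.

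Other pairs did not show both changes. Utp14b (-0.22 ± 0.29) and Slc25a31 (0.04 ± 0.24) were not called although Utp14a (-1.64 ± 0.17) and Slc25a5 fell. Fam50b was not called either, with 0.762, 77.4, 0.396 and 0.335 FPKM in pachytene against 1.36, 0.643 and 2.27 FPKM in spermatogonia, 1 pachytene library holding nearly all of its signal. Nxt1 fell (-1.56 ± 0.29), and so did its X-linked relative Nxt2 (-2.67 ± 0.22).

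**Figure D5:**
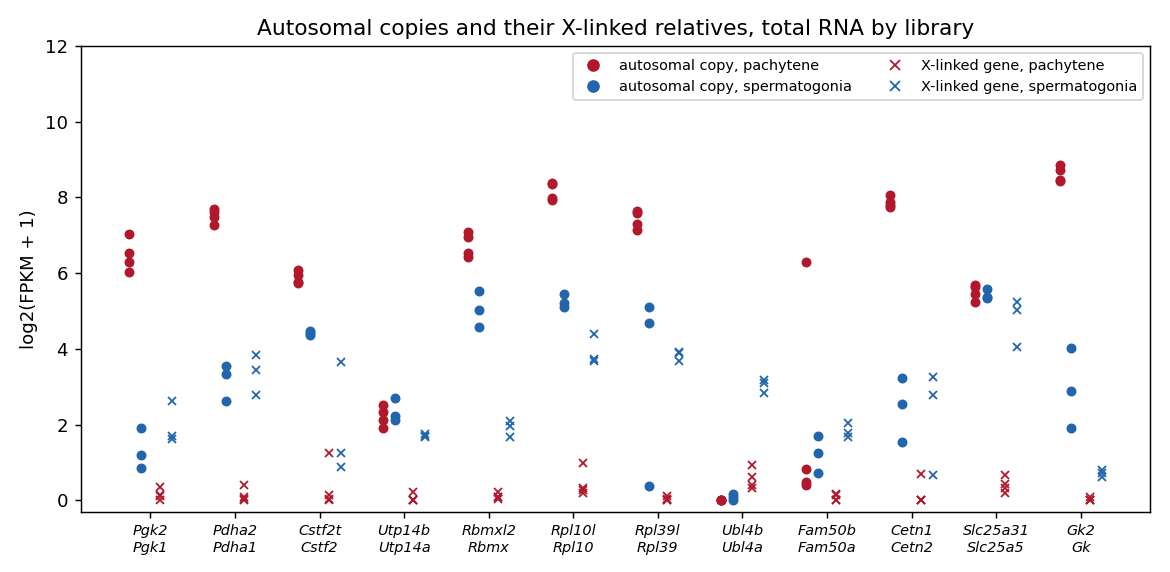
Level of 12 autosomal copies (circles) and their X-linked relatives (crosses) in each library on a log2(FPKM + 1) scale, with pachytene in red and spermatogonia in blue. In pachytene the X-linked genes lie low in all pairs, and the copies Pgk2, Pdha2, Rpl10l, Cetn1 and Gk2 lie above every spermatogonia library.

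Several classes of noncoding genes held larger shares of rises than protein-coding genes and others smaller ones. Of 551 lincRNAs tested 62.6% rose and 14.3% fell, and of 693 antisense genes 49.6% rose and 18.2% fell, against 23.3% risen and 39.7% fallen of 12525 protein-coding genes. Of 56 long noncoding RNAs from bidirectional promoters 75.0% rose. Of 237 small nucleolar RNAs 13.5% rose and 37.6% fell. These shares cover genes that passed the level filter, which a gene high in pachytene only can pass, and the differences between classes were not tested. Whether the counting used the strand is not given in the sources used here, so reads of an antisense gene and its partner may not have been told apart.

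The same stages were compared in EU-labelled nascent RNA, which came from other animals (numbers 5 to 8) and was not depleted of ribosomal RNA. The comparison used 4 pachytene and 3 spermatogonia libraries from 2 animals per stage and 14315 genes. In pachytene 2858 genes rose (20.0%) and 5148 fell (36.0%), with a median of -0.45. The excess of falls depended on the scaling, since with median-ratio scaling 4160 rose and 4333 fell (median -0.02) and with spike-ins removed before scaling 3637 rose and 4925 fell (median -0.22), both alternatives chosen after seeing the data. Spike-ins took 13.1% to 76.5% of the FPKM of pachytene and 8.86% to 59.0% of that of spermatogonia libraries. Of the genes risen in total RNA 4195 were tested, of which 2543 (60.6%) rose in nascent RNA too and 12 fell, and the 2543 made up 89.0% of nascent rises. Of the genes fallen in total RNA 4731 were tested, of which 4236 (89.5%) fell in nascent RNA and 13 rose, and the 4236 made up 82.3% of nascent falls. With spike-ins removed before scaling 72.4% of risen and 87.7% of fallen genes had the same call, against 25.5% risen and 34.6% fallen of all genes. After the 5S correction of the authors the shares were 34.4% and 33.9%, against 10.6% risen and 11.6% fallen of all genes. The sign was the same for 95.6% of risen and 97.9% of fallen genes after that correction, and for 89.4% and 98.8% in the uncorrected values. The median over all genes was -0.07 after that correction and -0.45 in the uncorrected values. A negative sign was therefore the more common one among all genes, and part of the agreement of falls is background.

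By group, 47 of 51 axoneme genes and 17 of 19 acrosome genes tested in nascent RNA rose, and 52 of 53 X-linked housekeeping genes fell. Among all genes tested there 20.0% rose and 36.0% fell. All 14 Sertoli markers tested there fell, so somatic markers moved with the stage in both sets of animals. The nascent change was 4.83 for Piwil1, 4.48 for Ldhal6b and -4.43 for Zbtb16. Of the genes tested in both assays, 1640 risen and 482 fallen in total RNA were not called in nascent RNA, and 251 risen and 803 fallen in nascent RNA were not called in total RNA. Rpl39l rose in total RNA and had a nascent change of -1.94 (adjusted p = 0.0212), and Nxt1 fell in total RNA and had 3.03 in nascent RNA (adjusted p = 0.00124). Rps4x and Syce1 were called in total RNA and had nascent changes of -1.02 (adjusted p = 0.114) and 0.89 (adjusted p = 0.158). Whether the assays differ for these genes was not tested.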

How the data were processed

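FPKM tables of total and nascent RNA were deposited by the authors, who list STAR 2.5.2a, StringTie and the build mm10 in the submitters' processing notes. Which annotation was counted, and whether by strand, is not given in the sources used here. Total RNA was depleted of ribosomal RNA and libraries were made with a directional kit, per the labels' protocols. Another deposited table holds a 5S-corrected signal, which is the nascent FPKM multiplied by the authors with a constant per library, and it lacks pachytene library 3. For the fit that signal was rescaled, by the same constant in all libraries, to the mean library sum of the uncorrected values.

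Spike-in rows (92) were dropped, and genes with at least 1 FPKM in 2 or more of the 7 libraries were tested. Values were taken as log2(FPKM + 1) and averaged per animal, and stages were compared with limma 3.58.1 (R 4.3.3; moderated test with trend, two-sided, Benjamini-Hochberg adjustment over all genes). An exact permutation of 2 against 2 animals cannot go below p = 0.333. The same steps were run on nascent RNA. The fit was tested on simulated data. Coordinates and biotypes are those of GENCODE M21 and were found for 17188 (95.4%) of the genes tested. The table holds 259 rows with merged symbols, 86 of them tested.

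The members and lists were chosen with earlier results of these data known. Genes named by rule were the 8 largest rises and 8 largest falls (5 FPKM or more on average in the higher stage, no overlap between stages, no predicted, small or merged genes), the 3 called members of each list with the largest change (where fewer than 2 were called, the highest by level), and a fixed set of known stage genes. Some genes that this rule names are not reported here. Further examples of a list were chosen after their values were seen. Alternatives were other pseudocounts, level filters, scalings, treatments of animals and replicates, the replicate number as a block, and leaving out each library or animal.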

Additional observations from a re-analysis of the deposited data

Results flagged for a closer look

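In 27 of 108 named genes 1 pachytene library lay apart from the other 3, by the gap to the nearest library divided by the range of the 4 on the log2(FPKM + 1) scale (past Dixon's 95% critical value for 4 libraries, which chance passes in about 1 of 20 groups). Pachytene library 3 was the highest in 24 of them. Among spermatogonial and replication genes the ratio was 0.9275 for Zbtb16, 0.897 for Lin28a, 0.971 for Sall4, 0.905 for Dmrt1, 0.8292 for Rhox13 and 0.890 for Mcm2. Among genes of recombination it was 0.990 for Tex15, 0.865 for Tex11, 0.915 for Dmc1 and 0.976 for Prdm9. Among X-linked genes it was 0.944 for Pgrmc1, 0.931 for Taf7l, 0.934 for Taf9b, 0.834 for Rpl10, 0.912 for Zfx, 0.881 for Hprt and 1 for Cetn2, which only that pachytene library held. The Y-linked genes Uba1y (0.955), Usp9y (0.9485) and Eif2s3y (0.895) followed, and so did Slc25a4 (0.875), Cbx2 (0.907), Btg2 (0.925) and Col1a2 (0.988). Library 3 was the lowest for Mybl1 (0.889). Pachytene library 2 was the highest for Morn5 (0.945), and pachytene library 1 the lowest for H1f0 (0.833). Without library 3 all 25 genes in which it lay apart kept their direction and call, with changes of -4.88 for Zbtb16, -4.31 for Tex15, -3.08 for Dmc1, -2.75 for Prdm9, -6.18 for Pgrmc1, -4.93 for Taf7l and 2.67 for Mybl1.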

How the results depend on the processing

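With a filter of 5 FPKM 8890 genes were tested in total RNA, of which 3207 rose and 2566 fell, 16 and 227 of them X-linked. Leaving out 1 library or 1 animal at a time gave 3126 to 5149 rises and 1547 to 6101 falls, of which 21 to 33 rises and 94 to 516 falls were X-linked, and in nascent RNA 1913 to 3171 rises and 3702 to 5837 falls. The fewest falls were without animal 3, which leaves 1 spermatogonia library, so that genes seen in spermatogonia only no longer pass the filter. Without animal 2 3151 rose and 3035 fell, and without animal 4 3126 rose and 2862 fell, with 337 X-linked falls. The lone animal of a stage is then assumed to vary like the others. The authors' 5S-corrected nascent table gave 1502 rises and 1646 falls. Without spike-ins before scaling (median of all genes 0.10) 5809 rose and 5526 fell.

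Polr2a, not called, changed sign with spike-in scaling (0.56), without spike-in rows before scaling (0.15), with median-ratio scaling (0.0022) and without spermatogonia replicate 3, the sole library of animal 1 (0.035), and lay between -0.18 and 0.035 over the libraries and animals left out. Ldha, not called, turned to -0.36 without pachytene replicate 1, -0.077 without animal 3 and -0.49 without animal 4, against 1.61 without animal 2. Sycp3 turned to -0.28 without animal 2, against 1.5 without animal 4, and Prm1 to -0.12 without animal 3, against 0.76 without animal 1. The cause was not tested. Over 109 named genes and 23 alternatives 2371 values kept direction and side of the threshold, 82 lost the call, 10 changed sign and 2 gained a call. The remaining combinations, most of them without animal 3, gave no value because the gene did not pass the filter. Leaving out spermatogonia replicate 3 and leaving out animal 1 are the same fit, and these totals count it under both names.

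Same-numbered libraries came from different animals, and their deviations from the stage means correlated at 0.0438, 0.0185 and -0.0144 in total RNA, so the numbers do not pair them. With the replicate block 5245 genes rose and 6516 fell in total RNA, and 2551 rose and 6017 fell in nascent RNA. Under it Sycp3 was called (1.07, adjusted p = 0.0238), and Mybl1 (1.86, adjusted p = 0.0684) and Sycp1 (-0.87, adjusted p = 0.0605) were not.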
